A study of Rattus norvegicus with 23 samples.

Results

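Urea cycle and periportal nitrogen genes were followed across a rat liver RNA-seq series on models of portosinusoidal vascular disease, in which small portal and sinusoidal vessels are altered. The 10 genes were chosen by symbol: the urea cycle enzymes Cps1, Otc, Ass1, Asl and Arg1, the activator enzyme Nags, the mitochondrial carriers Slc25a15 and Slc25a13, the glutaminase Gls2 and the histidine-degrading enzyme Uroc1. All 10 had a row in the table of 28913 genes, and all 10 passed the filter on low counts with 15079 genes in all. The series holds 23 whole-liver libraries of Sprague Dawley rats. Control (6 libraries) came from untreated rats. LPS (7 libraries) came from rats given 1 mg/kg of lipopolysaccharide, a component of the bacterial cell wall, 2 times a week for 8 weeks through a catheter placed by surgery and reaching the portal vein. Selfox (10 libraries) came from rats kept for 8 weeks on food enriched in selenium and injected once a week, 8 times in all, with 3 mg/kg of oxaliplatin, 25 mg/kg of 5-FU (the chemotherapy drug fluorouracil) and 45 mg/kg of folinic acid. No label gives surgery or a catheter for Control, so LPS and the operation cannot be told apart, nor can diet and drugs in Selfox. The sources used here give neither age, sex nor hour of collection, and no label says that each library is a separate rat. The p-values therefore measure the spread between these libraries, which may be technical.

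The urea cycle turns ammonia, which is toxic, into urea for excretion, and only hepatocytes carry it out in full. In the mitochondrion carbamoyl phosphate synthetase (Cps1) joins ammonia to bicarbonate once N-acetylglutamate, made by Nags, has activated it, and ornithine transcarbamylase (Otc) passes the product on to ornithine to give citrulline. In the cytosol Ass1 adds aspartate, Asl splits the product into arginine and fumarate, and arginase (Arg1) releases urea and returns ornithine. The cycle lies mainly in hepatocytes around the portal tract, where liver-type glutaminase (Gls2) also frees ammonia from glutamine, while a thin rim of hepatocytes around the central vein captures what is left with glutamine synthetase (Glul).

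The stretches just before the start sites of 3 members that rose in Selfox livers are shown because 2 of them share a short motif. They come from RefSeq on the GRCr8 assembly, each is 120 bases long and is read 5′ to 3′ towards the gene, and capitals mark the letters CAAAGNNC on either strand, the core of an element bound by the liver receptor HNF4.
Cps1, chr9:76063743-76063862, + strand: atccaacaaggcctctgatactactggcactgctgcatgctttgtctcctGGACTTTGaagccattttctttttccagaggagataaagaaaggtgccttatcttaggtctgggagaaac
Otc, chrX:15202474-15202593, - strand: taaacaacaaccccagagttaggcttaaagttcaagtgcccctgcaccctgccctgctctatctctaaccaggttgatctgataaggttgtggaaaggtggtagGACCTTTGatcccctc
Uroc1, chr4:124401999-124402118, + strand: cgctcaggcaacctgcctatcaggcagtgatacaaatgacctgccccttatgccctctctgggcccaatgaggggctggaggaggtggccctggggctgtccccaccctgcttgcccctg
Of the 10 members 9 had a promoter entry, Gls2 with 2 of them, and Arg1 had none. In the 250 bases before the start the motif CAAAGNNC was found for Cps1 and Otc, that is in 2 of 10 member promoters, against 14.8% of all 33469 promoters searched in the same way. The letters TTGCNNAA (C/EBP), TGTTCT (glucocorticoid receptor) and CACGTG (clock E-box) were in none of the 10 windows, against 9.22%, 17.5% and 5.59% of all promoters. TGACG, part of the cyclic AMP response element, was before Slc25a13 and Gls2 (18.2% of all promoters). The TATA box TATAAA was before Ass1 (12.9%), the CCAAT box before Slc25a13, Uroc1, Gls2 and Slc25a15 (34.0%), and the GC box GGGCGG before Gls2, Nags and Asl (30.5%). The motif letters were set after the promoter sequences had been seen, matches on both strands were counted, and a match describes letters only.

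Control libraries held 31889957 to 53806710 counts, and those of both models 65113145 to 79249765. These ranges do not overlap. Any difference in preparation or sequencing that goes with Control cannot be told apart from treatment, also for rises that both models share. The members took 0.586% to 0.984% of the counts in Control, 0.970% to 1.33% in LPS and 0.996% to 1.36% in Selfox. Dbp, an output gene of the circadian clock, was above Arntl, one of its core genes, in Control 55, LPS 5, LPS 6, LPS 7 and Selfox 8, and was below it in the other 18 libraries. In Selfox 8 Dbp and Arntl were nearly equal, at 3.352 and 3.348 on the log2 CPM scale defined below. These 5 are called the libraries with high Dbp. Where leaving out those 5 libraries ends a call given for a named gene, the text says so. That fit drops 3 of 7 LPS, 1 of 6 Control and 1 of 10 Selfox libraries. Whether a call lost in it goes with Dbp or with the smaller number of libraries was not tested. Defining hepatocyte markers were abundant in all groups, with Alb alone at 11.7% to 16.4% of the counts in Control, 6.76% to 12.8% in LPS and 7.74% to 11.1% in Selfox. Levels below are CPM, each gene's read count as a share of the library's total after scaling, in parts per 1e6, and changes are log2 differences from a model over all genes (edgeR's quasi-likelihood test, adjusted by Benjamini-Hochberg, threshold 0.05). In whole liver, more cells of a type and more RNA per cell cannot be told apart.

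Against Control, members rose in both models and 0 of the 10 fell in either. In LPS livers 5 of 10 rose, namely Cps1, Ass1, Nags, Gls2 and Uroc1, where 7.71% of the 15079 genes tested rose and 6.99% fell (14.7% in all). In Selfox livers 6 of 10 rose, namely Cps1, Ass1, Otc, Slc25a13, Gls2 and Uroc1, where 14.2% of all genes tested rose and 14.9% fell (29.1% in all). The median log2 fold change of the members was 0.42 in LPS and 0.41 in Selfox, beside 0.0058 and 0.011 over all genes. The members and all gene lists were chosen with earlier results of these data known. Their counts beside the shares of all genes are therefore a description and no test. Both comparisons share the 6 Control libraries, so a Control group that happened to be low would move them together. Directly between the models 0 of 10 members passed the test (edgeR, adjusted over all genes), where 14.5% of genes did (6.86% higher and 7.64% lower in Selfox); 2 had an unadjusted p below 0.05, and DESeq2 and limma voom called 0 as well.

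**Figure D1:**
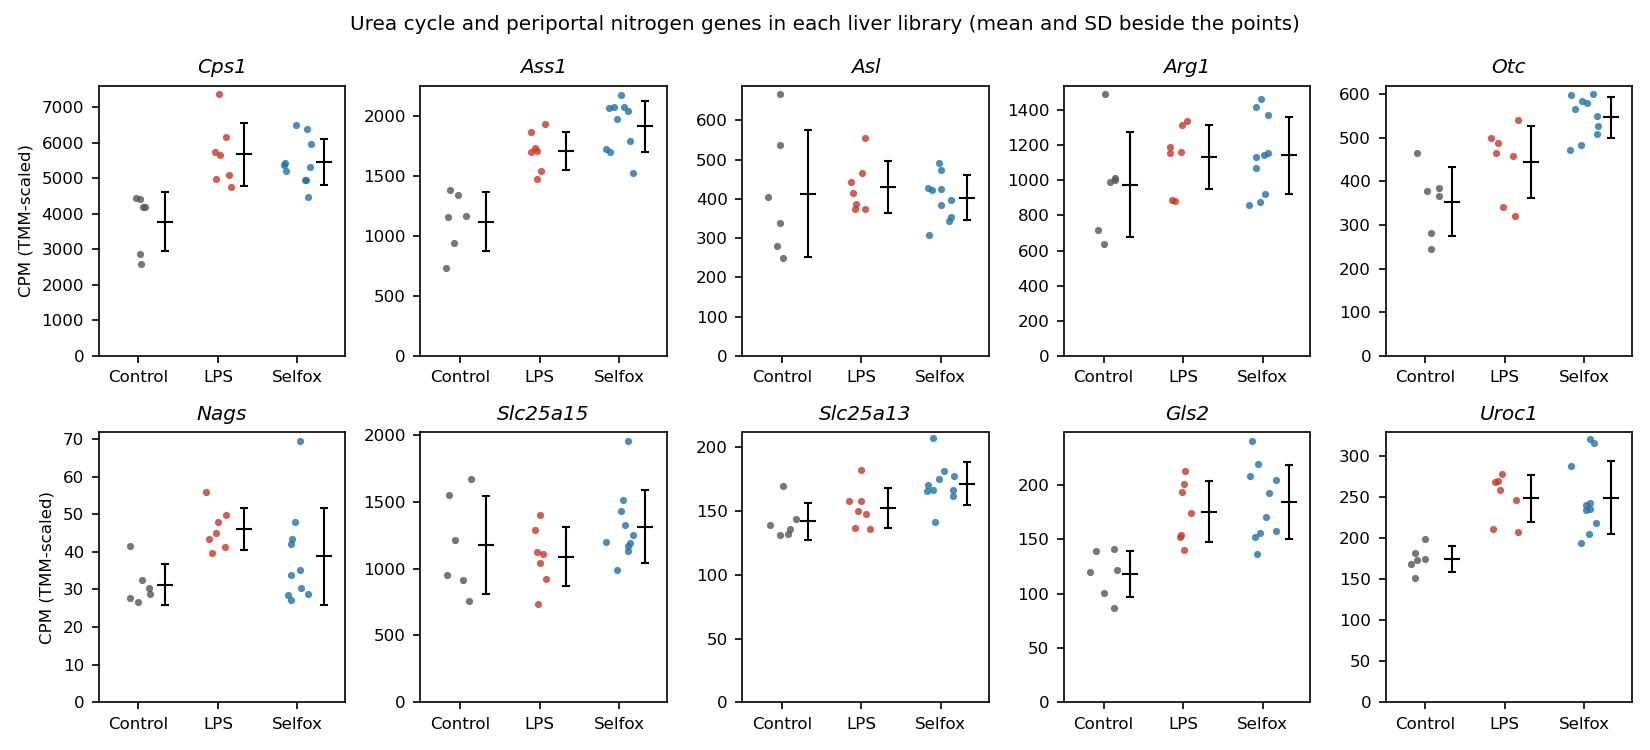
Scaled expression (CPM, vertical axis from 0, a separate scale for each gene) of the 10 members in each library, by group (6 Control, 7 LPS, 10 Selfox); the bar beside the points is the mean with its SD. Cps1 and Ass1 of both models lie above every Control point, while Asl, Arg1 and Slc25a15 overlap between all groups.

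Cps1, the entry enzyme of the cycle, had 2595, 4187 and 4451 CPM as its lowest, median and highest Control value. In LPS these were 4765, 5641 and 7355 CPM, and in Selfox 4479, 5340.3 and 6499.9 CPM. All 7 LPS and all 10 Selfox libraries thus lay above every Control library, a separation seen for 1.83% and 2.37% of all genes tested, while 1.81% and 2.55% lay wholly below Control. The log2 fold change was 0.59 ± 0.13 (SE, adjusted p = 0.00426) in LPS and 0.53 ± 0.12 (adjusted p = 0.00222) in Selfox, the latter about 1.44-fold. Control 46 and Control 49 (2855 CPM) were low, and the other 4 Control libraries lay within a narrow band from 4177 CPM upwards. The highest value of all 23 libraries was that of LPS 6, the library with the highest Dbp. Without the 5 libraries with high Dbp the change in LPS was 0.47 (adjusted p = 0.0385).

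Otc, which makes citrulline, had 246, 372 and 466.2 CPM (lowest, median, highest) in Control, 321, 466.2 and 541 CPM in LPS and 472, 559 and 601 CPM in Selfox. Each of the 10 Selfox libraries was above every Control library, against 3 of 7 in LPS, where LPS 7 and LPS 4 were the lowest. On the log2 scale the change was 0.63 ± 0.12 (adjusted p = 0.000591) in Selfox and 0.33 ± 0.13 (adjusted p = 0.0891) in LPS. The LPS value passed the threshold without Control 55 (0.43, adjusted p = 0.0233), without LPS 4 (0.39, 0.0486), without LPS 7 (0.39, 0.0408) or without the 5 libraries with high Dbp (0.49, 0.0217). Selfox and LPS differed by 0.30 ± 0.12 (adjusted p = 0.0866), so a difference between the models was not shown; without LPS 1 it was 0.36 (adjusted p = 0.0492). Selfox had the narrowest spread of Otc, a coefficient of variation of 8.59% against 22.3% in Control and 18.6% in LPS.

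Nags makes the compound that switches Cps1 on. Its lowest, median and highest values were 26.7, 29.6 and 41.5 CPM in Control and 39.8, 45.0 and 55.9 CPM in LPS, with 5 of 7 LPS libraries above every Control library. It rose by 0.56 ± 0.18 on the log2 scale in LPS (adjusted p = 0.0351). This call was lost in 7 of 13 fits that left out 1 library, namely Control 41, 46, 49 or 52 or LPS 1, 2 or 5 (adjusted p up to 0.0810, fold change 0.51 to 0.66 over the 13 fits). Selfox spread widely, at 27.3, 34.6 and 69.5 CPM. Its change was 0.31 ± 0.16 (adjusted p = 0.163), and 0.18 (adjusted p = 0.308) without Selfox 8, the library at 69.5 CPM. Without that library Nags was also lower in Selfox than in LPS by 0.38 (adjusted p = 0.0303, against 0.300 with it).

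Gls2, the glutaminase that feeds ammonia to Cps1 in the same cells, rose in both models. Control values were 86.8, 121 and 142 CPM (lowest, median, highest), LPS values 140.0, 174 and 213 CPM, and Selfox values 136, 182 and 241 CPM. The ranges touched: 6 of 7 LPS and 9 of 10 Selfox libraries were above every Control library. The change was 0.57 ± 0.14 (adjusted p = 0.00760) in LPS and 0.64 ± 0.13 (adjusted p = 0.000822) in Selfox. Without the 5 libraries with high Dbp the LPS change was 0.43 and no longer passed (adjusted p = 0.0856); LPS 5 and LPS 6, both left out there, had the highest Gls2 of the LPS group. The Selfox change in that fit was 0.62 (adjusted p = 0.00263).

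Ass1, which commits citrulline and aspartate to the cytosolic steps, had the strongest change of the 10 in Selfox. Its lowest, median and highest values were 729.6, 1159 and 1377 CPM in Control, 1475, 1704 and 1926 CPM in LPS and 1522, 2006 and 2174 CPM in Selfox. No library of either model reached down into the Control range. The log2 fold change was 0.61 ± 0.12 (adjusted p = 0.00163) in LPS and 0.77 ± 0.11 (adjusted p = 3.34e-05) in Selfox, and all alternatives run for Ass1 kept both calls. Selfox lay above LPS by 0.16 ± 0.10 (adjusted p = 0.321, 95% interval -0.04 to 0.37), with 6 of 10 Selfox libraries above every LPS library.

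Asl, the next enzyme, passed the test in neither model. It had 249, 372 and 667 CPM in Control, 373, 415 and 555 CPM in LPS and 309, 411 and 491 CPM in Selfox, and the Control range enclosed both others. The log2 fold change was 0.06 ± 0.17 in LPS (adjusted p = 0.858, 95% interval -0.28 to 0.40) and -0.03 ± 0.16 in Selfox (adjusted p = 0.896, interval -0.35 to 0.28). Control was widely spread, with a coefficient of variation of 39.1% against 15.2% in LPS and 14.1% in Selfox. Both intervals end below the estimated change of Ass1 in the same model, which is no test of a difference between the genes. In LPS the 95% interval of Ass1, 0.38 to 0.84, overlaps that of Asl.

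Arg1, which releases urea, had 637, 996 and 1495 CPM in Control, 881 (lowest), 1161 and 1338 CPM in LPS and 862, 1139 and 1461 CPM in Selfox. Control 40 had the highest Arg1 of all 23 libraries, and no library of either model lay outside the Control range. The log2 fold change was 0.22 ± 0.17 in LPS (adjusted p = 0.415) and 0.23 ± 0.16 in Selfox (adjusted p = 0.287). Without Control 40 these were 0.38 (adjusted p = 0.107) and 0.39 (0.0508), and without Control 49, the lowest, 0.11 and 0.13. The LPS value was 0.08 without the 5 libraries with high Dbp. The 95% intervals were -0.11 to 0.54 and -0.08 to 0.53. Macrophages and neutrophils can also make Arg1. Of the macrophage markers 11 of 12 fell in Selfox, with a summed level of 315 to 481 CPM against 821 to 1104 CPM in Control, and 6 of 8 neutrophil and red cell markers rose there (22.3 to 207 CPM summed, against 59.1 to 140.1 CPM). Of all genes 14.2% rose and 14.9% fell in Selfox. Without the 5 libraries with high Dbp 1 of the neutrophil and red cell markers rose. Their part in the Arg1 level was not tested.

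Neither carrier passed the test in LPS. Slc25a15, which exchanges ornithine and citrulline across the mitochondrial inner membrane, had 757, 1082 and 1669 CPM in Control, 737, 1108 and 1400.1 CPM in LPS and 986, 1221 and 1955 CPM in Selfox. Its log2 fold change was -0.11 ± 0.18 in LPS (adjusted p = 0.719) and 0.16 ± 0.17 in Selfox (adjusted p = 0.500), the latter from 0.07 to 0.29 with 1 library left out. Slc25a13, also called citrin, exports the aspartate used by Ass1 and had 131, 137 and 169 CPM in Control, 136, 149.9 and 182 CPM in LPS and 141, 168 and 207 CPM in Selfox. It rose in Selfox by 0.27 ± 0.076 (adjusted p = 0.00967), the smallest change among the members called, with 5 of 10 Selfox libraries above every Control library. The LPS change was 0.10 ± 0.082 (adjusted p = 0.418). Selfox against LPS gave 0.17 ± 0.072 (adjusted p = 0.127, and 0.0418 without LPS 1). Slc25a12, the other aspartate carrier, which is scarce in liver, fell in Selfox from 11.8 to 8.05 CPM (-0.55 ± 0.11, adjusted p = 0.000921).

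Uroc1 encodes urocanase, a step in the breakdown of histidine to glutamate. Its lowest, median and highest values were 151, 174 and 199 CPM in Control, 207, 259 and 278 CPM in LPS and 194, 238 and 320.5 CPM in Selfox. All 7 LPS libraries and 9 of 10 Selfox libraries were above every Control library, the exception being Selfox 8. It rose by 0.51 ± 0.11 in LPS (adjusted p = 0.00403) and by 0.51 ± 0.10 in Selfox (adjusted p = 0.000832). Of the neighbouring steps 1 was called, and whether they differ from Uroc1 was not tested. Histidase (Hal), the step before, had a change of 0.33 ± 0.17 in LPS (adjusted p = 0.204) and rose in Selfox by 0.46 ± 0.16 (adjusted p = 0.0333), a call absent without Control 55 or without the 5 libraries with high Dbp (adjusted p = 0.0555 and 0.0939). Amdhd1, the step after, had -0.81 ± 0.36 in LPS and -0.45 ± 0.33 in Selfox, and Ftcd, the last step, -0.03 ± 0.13 and -0.13 ± 0.12 (adjusted p from 0.140 to 0.910). The fourth gene of that list, Hdc, makes histamine instead and fell in both models (-1.45 ± 0.48, adjusted p = 0.0476, and -2.36 ± 0.44, adjusted p = 0.000509).

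**Figure D2:**
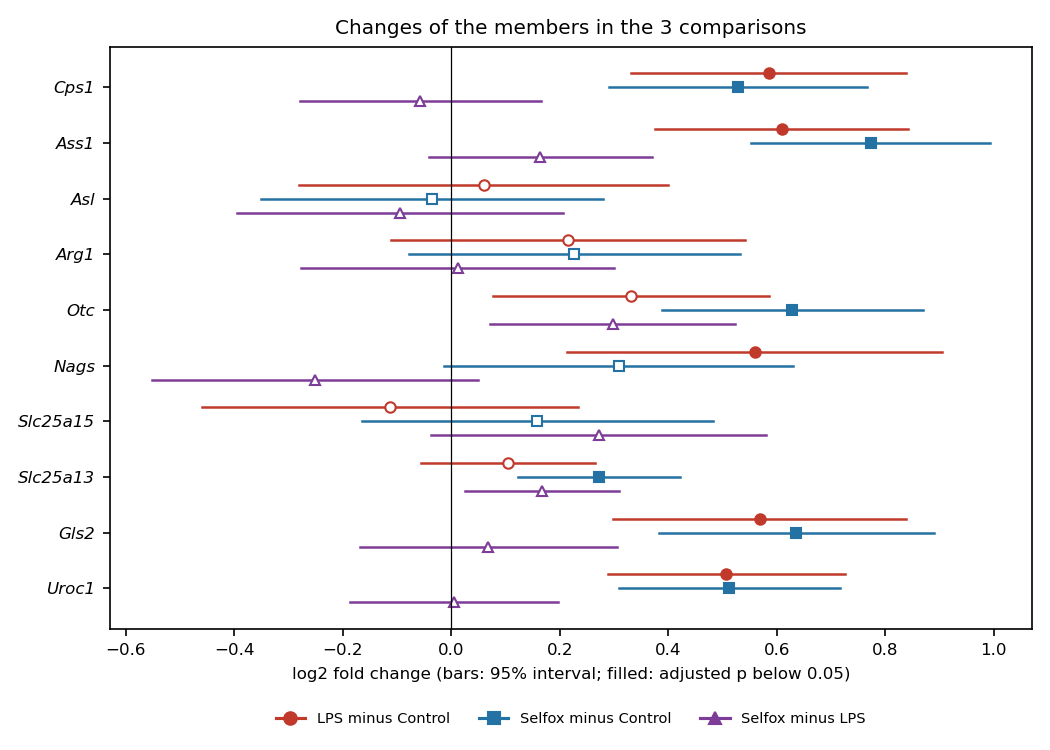
Log2 fold change (horizontal axis) of each member in LPS minus Control (circles), Selfox minus Control (squares) and Selfox minus LPS (triangles); bars are 95% intervals from the standard error, and filled marks passed the adjusted threshold of 0.05. Filled marks lie between 0.27 (Slc25a13) and 0.77 (Ass1), and the triangles are all open.

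Ratios of consecutive enzymes were taken within each library, where scaling of the library cancels. These 4 ratios were chosen after the gene values had been seen. The ratio of Ass1 to Asl, of which 1 gene was called and the other was not, restates those values. It is given as a description, without its p-values. Its tests are among the 12 over which p was adjusted, which can lower the adjusted p of the other ratios. The log2 ratio of Ass1 to Asl read counts ran from 1.01 to 2.05 in Control (mean 1.49 ± 0.34, SD, n = 6), from 1.62 to 2.21 in LPS (SD 0.18, n = 7) and from 1.83 to 2.59 in Selfox (2.25 ± 0.24, n = 10). The mean was 0.76 above Control in Selfox, with 8 of 10 libraries above every Control library, and 0.50 above in LPS, with 2 of 7. Control 55 had the highest Control ratio, and Control 40 the lowest. A ratio does not say which of its genes moved. The ratios Cps1/Otc, Otc/Ass1 and Asl/Arg1 did not pass the threshold in any comparison with all libraries (2-sided exact permutation test, p adjusted over 12 tests from 0.0943 to 0.521). Asl/Arg1 was lower in Selfox than in Control by 0.22, and passed the threshold without Control 55 (adjusted exact permutation p = 0.0173). Cps1/Otc was lower in Selfox than in LPS by 0.37 (adjusted p = 0.0943, exact permutation), past the threshold without LPS 1 or without LPS 3 (adjusted exact permutation p = 0.0457 and 0.0484). That difference was -0.17 when the 5 libraries with high Dbp were left out.

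**Figure D3:**
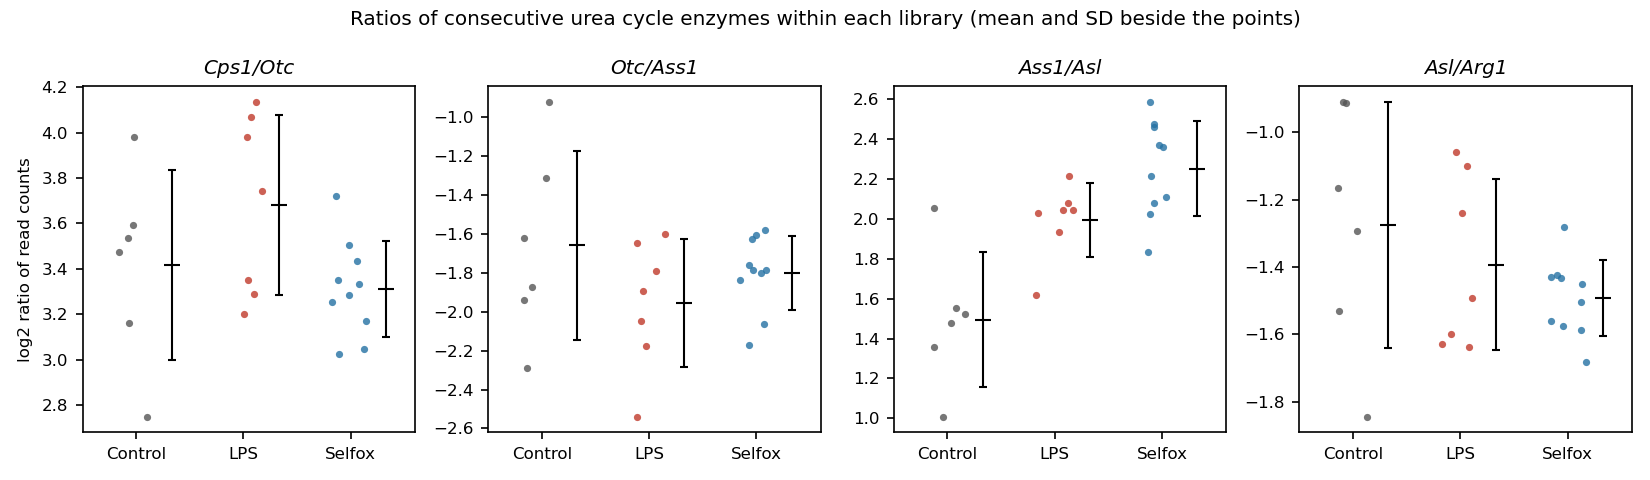
Log2 ratio of read counts (vertical axis, separate scale for each panel) of consecutive urea cycle enzymes in each library, by group; the bar beside the points is the mean with its SD. The Ass1/Asl ratio has a mean of 1.49 in Control and 2.25 in Selfox, and the groups overlap in all 4 panels.

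Within groups the members varied together in part. After each library's log2 CPM was centred on its group mean, 36 of the 45 pairs of members had a positive Pearson r over the 23 libraries, with a median of 0.23 and a range from -0.45 to 0.81. Cps1 and Ass1 were the closest pair (0.81), followed by Arg1 with Gls2 (0.75), Asl with Arg1 (0.72) and Asl with Gls2 (0.71). Otc stood aside from the other cycle enzymes, with r of 0.05 to Cps1, -0.13 to Asl, 0.08 to Arg1 and about 0 to Ass1. Uroc1 and Nags were the most opposed pair (-0.45). All these values share the same libraries and scaling and are given as a description. Control 46 was the lowest Control library for 6 members (Cps1, Ass1, Asl, Slc25a15, Slc25a13 and Gls2), and Control 40 the highest for 5 (Asl, Arg1, Nags, Slc25a15 and Gls2). In Selfox the highest library was Selfox 10 for 7 members, yet the same library had the lowest Nags of that group.

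**Figure D4:**
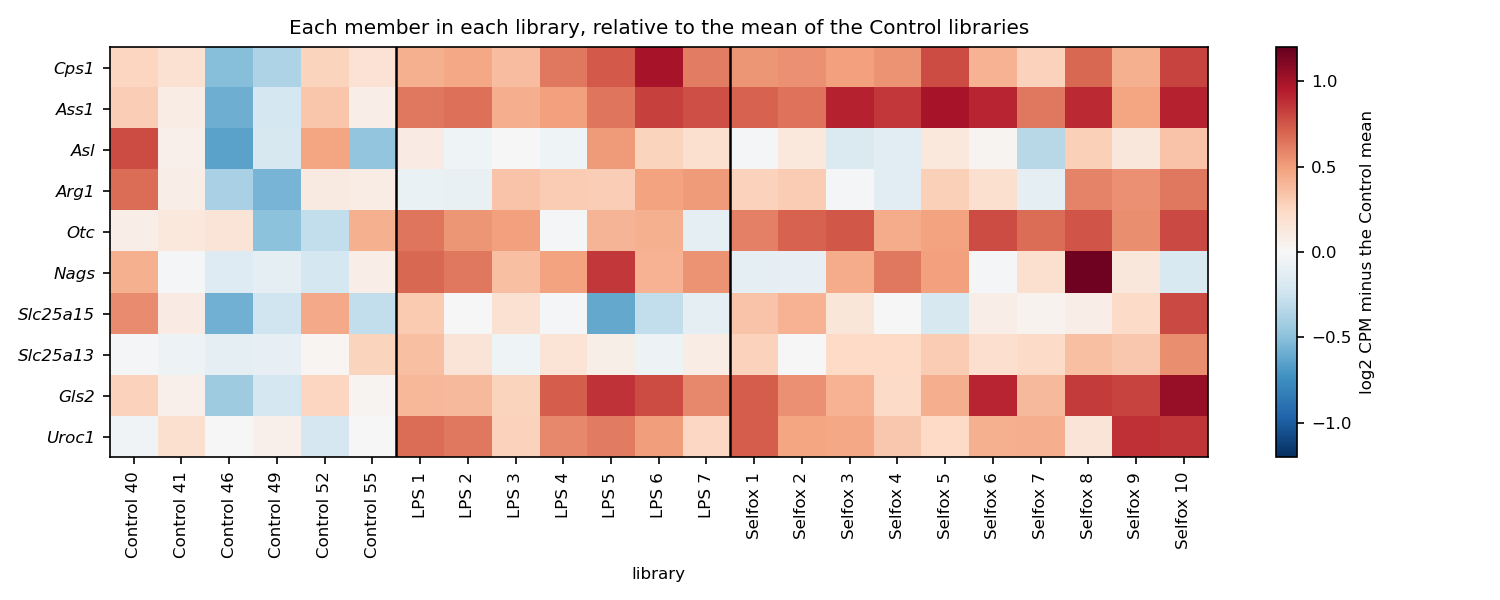
Each member (rows) in each library (columns, black lines between the groups) as log2 CPM minus the mean of the 6 Control libraries; red is higher and blue lower, with the colour scale ending at 1.2 either way. Cps1, Ass1, Gls2 and Uroc1 are red throughout both models, while Control 46 is below that mean for 8 of the 10 members and Asl is of mixed sign in every group.

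Genes that varied most like a member, by Pearson r of the centred values over the 23 libraries, were looked up for all members. For Cps1 these included Epm2a (r = 0.80, Spearman 0.78), the unnamed gene AABR07036649.2 (0.80), Gfra2 (0.76) and Plpp3 (0.75). The glutamine and neutral amino acid transporter gene Slc38a4 was closest to both Asl (0.87) and Gls2 (0.82). The fumarase gene Fh was closest to Arg1 (0.87), the aspartate aminotransferase gene Got1 to Slc25a15 (0.87), the mitochondrial NAD kinase gene Nadk2 to Otc (0.84), Midn to Nags (0.88) and Hspa12a to Uroc1 (0.78). AABR07036649.2 was closest to Ass1 as well (0.89), and AABR07070357.1 to Slc25a13 (0.77). Each was picked as the highest among all genes tested, so the r values are high by selection.

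Breakdown of amino acids yields nitrogen that the urea cycle disposes of, and the list counted here holds enzymes of these pathways whether or not their own step releases nitrogen. Like the members, the list was chosen with earlier results of these data known. In LPS 13 of 35 tested rose and 1 fell, and in Selfox 22 of 35 rose and 0 fell, against 7.71% and 14.2% of all genes that rose; medians were 0.28 and 0.36. In LPS Acmsd, of tryptophan breakdown, rose by 1.38 ± 0.24 (adjusted p = 0.000687), the tyrosine-degrading dioxygenase Hpd by 0.69 ± 0.12 (744 to 1197 CPM) and kynurenine monooxygenase (Kmo) by 0.69 ± 0.13, with all 7 libraries above every Control library for each. The gene that fell was kynureninase, Kynu (-0.63 ± 0.16, adjusted p = 0.0127). In Selfox the leading genes were Gcat, of threonine breakdown (0.88 ± 0.11, adjusted p = 7.05e-06), Afmid, of tryptophan breakdown (0.94 ± 0.14), and Bckdhb, of branched-chain amino acid breakdown (0.57 ± 0.092). Between the models 4 were higher in Selfox and 0 lower, beside 6.86% and 7.64% of all genes. They were led by Csad, of taurine synthesis (0.58 ± 0.11, adjusted p = 0.000659), Amt, of glycine cleavage (0.38 ± 0.072), and Gcat (0.40 ± 0.10). Without the 5 libraries with high Dbp Gcat was not called between the models (0.37, adjusted p = 0.0583), and the counts were 15 up and 1 down in LPS and 22 up and 1 down in Selfox.

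Genes that supply or remove ammonia and glutamine were mixed. Over all genes tested 7.71% rose and 6.99% fell in LPS, and 14.2% rose and 14.9% fell in Selfox. Between the models 6.86% of all genes were higher in Selfox and 7.64% lower. In LPS 4 of 16 rose and 0 fell: Ca5a, the mitochondrial carbonic anhydrase that provides bicarbonate to Cps1 (0.72 ± 0.18, adjusted p = 0.00882), the glutamine carriers Slc38a4 (0.50 ± 0.14) and Slc38a3 (0.45 ± 0.14), and Aspg, the last 3 of which were no longer called without the 5 libraries with high Dbp (0.25, 0.16 and 0.28, adjusted p = 0.285, 0.315 and 0.217). In Selfox 2 rose and 3 fell, among them Slc25a12, Slc38a4 (0.51 ± 0.13, adjusted p = 0.00519) and the pericentral glutamate carrier Slc1a2 (-0.91 ± 0.32, adjusted p = 0.0348, and 0.0565 without Control 55). Selfox lay below LPS for Slc1a2 (-1.79 ± 0.30, 5.77 and 1.67 CPM), the channel gene Aqp9 (-0.61 ± 0.13) and Ca5a (-0.56 ± 0.15, adjusted p = 0.0149), with 4 of 16 lower in all. The Ca5a difference was not called without those 5 libraries (-0.36, adjusted p = 0.211). Without the 5 libraries with high Dbp the counts were 2 up in LPS, 1 up and 2 down in Selfox, and 2 lower between the models. Glul, the pericentral counterpart of Gls2, was singled out after its values were seen and had means of 356, 340.1 and 254 CPM in Control, LPS and Selfox; its changes against Control were -0.06 ± 0.24 and -0.49 ± 0.22 (adjusted p = 0.893 and 0.106).

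Among genes that use arginine or ornithine, 1 of 14 rose and 1 fell in LPS, and 5 rose and 2 fell in Selfox. The shares over all genes were 7.71% up and 6.99% down in LPS, and 14.2% up and 14.9% down in Selfox. In LPS the guanidinoacetate methyltransferase gene Gamt rose by 0.36 ± 0.080 and the arginine carrier gene Slc7a1 fell by 1.36 (SE 0.43, adjusted p = 0.0358). The Slc7a1 change in LPS without the 5 libraries with high Dbp was -1.39 and no longer called (adjusted p = 0.0973). Counts without them were 2 up and 0 down in LPS and 6 up and 2 down in Selfox. Slc7a1 fell in Selfox as well (-1.16, edgeR, adjusted p = 0.0278), and was still called there without those 5 libraries (-1.42, adjusted p = 0.0178). In Selfox Gatm, which makes guanidinoacetate from arginine, rose by 0.67 ± 0.13 (12.3 to 19.6 CPM, 10 of 10 above every Control library). The hepatic arginine carrier gene Slc7a2 rose by 0.58 ± 0.13 (369 to 553 CPM) and the spermine synthase gene Sms by 0.43 ± 0.098. Gatm and Nos3, the endothelial nitric oxide synthase, were also higher in Selfox than in LPS (0.85 ± 0.12 and 0.52 ± 0.092), each with all 10 Selfox libraries above every LPS library. Of all genes tested 0.743% had every Selfox library above every LPS library and 1% had every one below. Between the models 6.86% of all genes were called higher in Selfox and 7.64% lower.

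Other zonal genes were counted in the same way. Of 12 further periportal genes 2 rose and 1 fell in LPS, and 4 rose and 0 fell in Selfox, beside 7.71% and 14.2% of all genes that rose. Of all genes 6.99% fell in LPS and 14.9% in Selfox, and these shares stand beside every list in this paragraph. The cadherin Cdh1 and the immunoglobulin receptor Pigr rose in both (Cdh1 by 0.68 ± 0.15 and 0.46 ± 0.14, Pigr by 0.27 ± 0.071 and 0.23 ± 0.066), Ctsc in Selfox (0.30 ± 0.091) along with Hal, and Igf1 fell in LPS (-0.45 ± 0.13, adjusted p = 0.0247). With the 5 libraries with high Dbp left out 3 rose and 0 fell in each model, and Igf1 was not called (-0.33, adjusted p = 0.150). Of 16 pericentral genes 1 rose and 0 fell in LPS, Cyp27a1 (0.41 ± 0.10). In Selfox 0 rose and 3 fell, Slc13a3 (-0.82 ± 0.20), Axin2 (-0.49 ± 0.16) and Slc1a2, while without Control 55 the count was 3 up and 3 down. Pericentral counts without the 5 libraries with high Dbp were 2 up and 1 down in LPS and 2 up and 4 down in Selfox, and Cyp27a1 was not called (0.25, adjusted p = 0.113). Of the 10 hepatocyte markers tested 1 rose in LPS, Apoa2 (0.74 ± 0.13). In Selfox 3 rose and 4 fell, led by Apoa1 (-1.02 ± 0.15), Hnf4a and Apoa2 (0.62 ± 0.12). The summed hepatocyte markers were at 171541 to 251215 CPM in Control, 138275 to 208471 CPM in LPS and 153735 to 174709 CPM in Selfox. Endothelial cells make some Ass1 and Asl. Of their 11 markers 2 rose and 0 fell in each model, Vwf in both (0.69 ± 0.11 and 0.56 ± 0.10), Aqp1 in LPS and Kdr in Selfox (0.46 ± 0.16), with summed levels of 433 to 506 CPM in Control, 277 to 512 CPM in LPS and 436 to 561 CPM in Selfox. Called or not, 8 of the 11 had a negative log2 fold change in LPS (median -0.23) and 5 in Selfox (median 0.037). Of 12 bile duct and stellate cell markers 2 rose in LPS and 6 in Selfox, at 71.2 to 98.7, 75.6 to 105 and 90.1 to 135 CPM summed in Control, LPS and Selfox. The part of these cells in the members' levels was not tested.

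Regulators of these genes and the fasting programme were mixed in direction. For both lists the shares over all genes were 7.71% up and 6.99% down in LPS, and 14.2% up and 14.9% down in Selfox. Of 15 regulators 3 rose and 0 fell in LPS: Sirt5, which encodes a mitochondrial deacylase that acts on Cps1 protein (0.49 ± 0.097, adjusted p = 0.00164), the glucagon receptor gene Gcgr (0.41 ± 0.12, adjusted p = 0.0250) and Sirt3 (0.39 ± 0.13). In LPS 2 of the regulators rose without the 5 libraries with high Dbp, and Sirt3 was not called (0.38, adjusted p = 0.0920). In Selfox 3 rose and 2 fell, led by Sirt5 (0.63 ± 0.091, 12.3 to 19.0 CPM), Hnf4a (-0.53 ± 0.091, 708 to 492 CPM, 9 of 10 below every Control library) and Gcgr (0.56 ± 0.11, adjusted p = 0.000861). Hnf4a was at 603 CPM in LPS (-0.23 ± 0.099, adjusted p = 0.116). The receptor it encodes is the one whose element core was looked for in the promoters; binding was not measured. Of 17 genes of gluconeogenesis and fasting 2 rose and 4 fell in LPS, and 3 rose and 4 fell in Selfox; 1 rose and 4 fell in LPS without the 5 libraries with high Dbp. Among those that rose was G6pc, by 0.63 in LPS (edgeR, adjusted p = 0.0469) and by 0.73 in Selfox (edgeR, adjusted p = 0.00774). The transcription factor gene Creb3l3 fell by 0.52 (SE 0.10) in LPS and by 0.66 (SE 0.096) in Selfox. The carnitine palmitoyltransferase gene Cpt1a fell from 492 CPM to 286 CPM in LPS and 214 CPM in Selfox. Pyruvate carboxylase (Pc) fell by 0.48 (SE 0.091) in LPS, below every Control library in all 7. Between the models Fgf21 was lower in Selfox (-1.74 ± 0.41, 26.0 and 7.76 CPM) and Klf15, a regulator of amino acid breakdown, higher (0.58 ± 0.14, adjusted p = 0.00625).

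**Figure D5:**
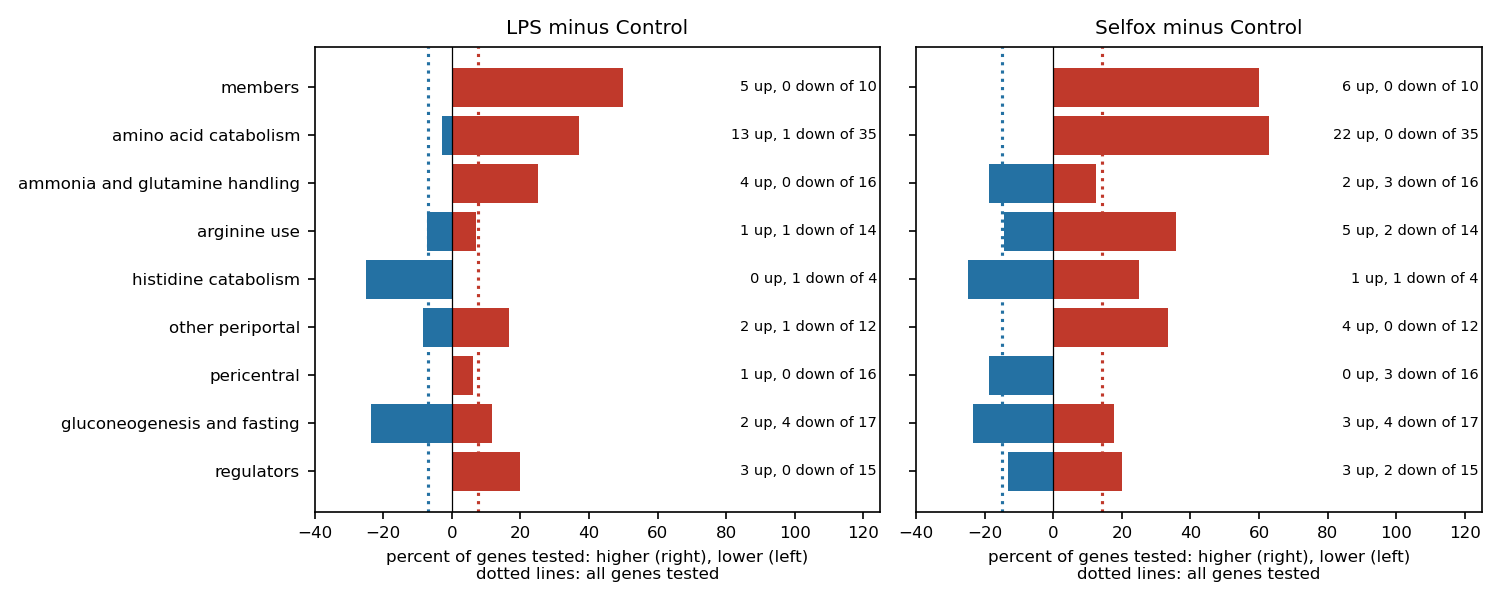
Percent of the genes tested in each list that rose (red, to the right of 0) or fell (blue, to the left) in LPS minus Control (left panel) and Selfox minus Control (right panel); dotted lines mark the percentages over all 15079 genes tested. The members (5 and 6 of 10 rose) and amino acid catabolism (13 and 22 of 35) reach past the red dotted line in both panels. Other periportal genes, regulators, and gluconeogenesis and fasting do so as well. Gluconeogenesis and fasting also reaches past the blue dotted line in both panels (4 of 17 fell in each), as does histidine catabolism (1 of 4 in each). Marker lists of cell types are not drawn.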

How the data were processed

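The members and gene lists were chosen with earlier results of these data known. The authors deposited raw read counts per gene for 23 libraries. Per the submitters' processing notes, reads were checked with FastQC, trimmed with Trim Galore, aligned with STAR 2.7.9a and counted with featureCounts of Subread 2.0.3, and per the labels' protocols the libraries were stranded mRNA libraries. The sources used here do not name the build, annotation or strand setting, so overlapping genes are uncertain.

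Genes were kept by filterByExpr (minimum count 10), scaled by TMM and fitted over all 3 groups with edgeR 4.0.16 (R 4.3.3) by robust quasi-likelihood, with Benjamini-Hochberg adjustment over all 15079 genes and a threshold of 0.05. The standard error is the log2 fold change divided by the root of F, intervals are 95% by normal approximation, CPM uses TMM-scaled library sizes, and log2 CPM a prior count of 2. The fit was tested on simulated counts. Named genes are all members, the 3 lowest adjusted p-values past the threshold per list and comparison, and the genes most like each member; further names were added where a list or a cell type called for them, and some genes the rule names are not reported here. Alternatives were RLE factors, no filter, thinned counts, DESeq2 1.42.0, limma voom (limma 3.58.1), fits of 2 groups, each library left out, a block for replicate numbers, and, added after the data were seen, fits without the libraries with high Dbp. Total counts differed between Control and the models, so counts thinned to equal depth were among the alternatives. Thinning equalises the totals only and cannot remove another difference in preparation or sequencing that goes with Control.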

Additional observations from a re-analysis of the deposited data

Results flagged for a closer look

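Slc25a13 in Control 55 was at 7.40 log2 CPM, with the nearest Control library at 7.17 and the lowest at 7.04. Its gap to the nearest library took up 0.645 of the range of the 6 Control libraries, above the limit of 0.625 that Dixon's test sets for 6 samples. It was 1 of 30 combinations of member and group examined, and chance alone marks about 1 in 20. Without Control 55 the change of Slc25a13 was 0.33 in Selfox and 0.16 in LPS, against 0.27 and 0.10 with it.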

How the results depend on the processing

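The count of members past the threshold stayed at 5 in LPS minus Control under RLE factors, no filter, thinned counts, DESeq2, the 2 groups alone and without the libraries with high Dbp, was 6 with limma voom, and ran from 4 to 6 with 1 library left out. In Selfox minus Control it was 6 in each of these settings. In Selfox minus LPS it was 0 in each, and ran from 0 to 2 with 1 library left out: 2 without LPS 1 (Otc and Slc25a13) and 1 without Selfox 8 (Nags). With the replicate block over the libraries numbered 1 to 7 it was 0, as without the block; the pairing is by number alone, since same-numbered LPS and Selfox libraries correlated from -0.06 to 0.16 in their deviations and 1 of 7 was closest to its own number. Over all alternatives other than left-out libraries, 250 values of single genes and ratios kept their direction, or were not past the threshold on either side, 1 lost its call (Gls2 in LPS) and 3 gained one (Otc in LPS with limma voom at 0.44, adjusted p = 0.0164, and without the libraries with high Dbp; Asl/Arg1 in Selfox without those libraries). The cause of these changes was not tested.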
